A study of Canis lupus familiaris with 109 samples.

Results

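The region described here is a window of chromosome 2 in domestic dogs, from 35.7 to 36.6 Mb on the CanFam3.1 build, in which the clustered protocadherin genes are expected. Its members are all cytosine positions that the deposited table of DNA methylation lists in the window, 1213 of 304191 positions or 0.399%. A second table, of repeat captures, lists 3368 of its 1812277 positions in the window. The members were chosen by position alone, with earlier results of these data known, so their levels are a description and carry no test. The first listed position is 35742565 and the last 36599772. The last 5 positions listed before the window, at 35618987 to 35619014, had median levels of 0, and none is listed nearer to its start. The first 5 inside the window had median levels of 0 to 0.02, the last 5 inside 0 to 0.9, and the next 5 beyond its end 0 to 0.96.

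DNA of dog blood was measured by bisulfite sequencing, in which only methylated cytosines are still read as cytosine, after capture of selected parts of the genome. The labels list 109 samples of 103 dogs, of which 94 fall into 4 life stages: 13 juvenile (0.134 to 0.455 years), 6 adolescent (0.559 to 1.9 years), 35 mature (2.24 to 6.9 years) and 40 senior (7.33 to 14.5 years). The other samples are 6 repeat captures (0.384 to 15.5 years) and 8 of low coverage (0.455 to 9.33 years). The remaining 1 is a first capture of a dog with a repeat, kept apart here (15.5 years). The main table holds 95 libraries, and 7 are in the table of repeats. Of their codes 0 match a label, so ages, sexes and life stages could not be compared. The values are ranges and medians over unassigned libraries of unknown read depth, and a different mix of blood cells and a different level within a cell type cannot be told apart.

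Clustered protocadherins are cell-adhesion proteins best known from neurons. In mammals their genes stand in 3 tandem clusters, alpha, beta and gamma, in which each variable exon has a promoter of its own, and a neuron uses only a few of these promoters. DNA methylation of the variable promoters goes with their silence, and the factor CTCF binds many of those in use. That the window holds these clusters is expected from the conserved gene order of mammals and was not checked, because the gene table used here is on another assembly (UU_Cfam_GSD_1.0). On chromosome 2 of that assembly, the named protein-coding genes follow each other as HARS1 and HARS2 (histidyl-tRNA synthetases), ZMAT2 (a spliceosome protein), PCDHA13, PCDHAC1, PCDHB1, SLC25A2 (a mitochondrial carrier), TAF7 (a subunit of the general transcription factor TFIID), DIAPH1 (a formin) and HDAC3 (a histone deacetylase). Only 3 genes there carry a PCDHA or PCDHB symbol and 0 a PCDHG symbol. Regions are therefore named by position below and given no gene.

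Partly methylated positions took a larger share of the window than of the table. The median methylation fraction over the 95 libraries served as the level of a position. Levels under 0.1 are called unmethylated, over 0.8 methylated, and those between intermediate. Of the 1213 positions, 589 (48.6%) were intermediate, 458 (37.8%) unmethylated and 166 (13.7%) methylated. With boundaries of 0.2 and 0.7 the order turned, with 36% intermediate and 43.4% unmethylated. Over all 304191 positions, with boundaries of 0.1 and 0.8, the shares were 16.7% intermediate, 50.6% unmethylated and 32.8% methylated. The rest of chromosome 2, with 12994 positions, lay near the whole table, at 16.9%, 47.7% and 35.4%. The difference from other positions was not tested, since neighbouring positions share molecules and are not replicates.

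The 3 classes were not mixed evenly along the window. In the first 100 kb 142 of 156 positions were unmethylated and 3 intermediate, and in the second 134 of 181 were unmethylated and 7 intermediate. Both intervals thus held almost only positions near one or the other end of the scale. In the third 100 kb, from 35900000, 213 of 233 positions (91.4%) were intermediate and 5 unmethylated, and the median level rose from 0 in the first 2 intervals to 0.48. Intermediate shares were 61%, 59.1% and 34.1% in the next 3 intervals, in which an unmethylated class came back with 25 of 77, 55 of 149 and 65 of 126 positions. The interval from 36300000 was again mostly intermediate, with 135 of 169 positions (79.9%) and only 6 unmethylated. From 36400000 on, 52 of 104 were intermediate and 38 methylated, and in the last interval 12 of 18 were unmethylated and 1 intermediate. The map of levels along the window shows the intermediate stretch between flanks that have almost no such position. Of 8 intervals of the window with at least 20 positions, 5 were at least 50% intermediate, where 4.01% of the 4492 such 100 kb intervals of the table were.

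**Figure D1:**
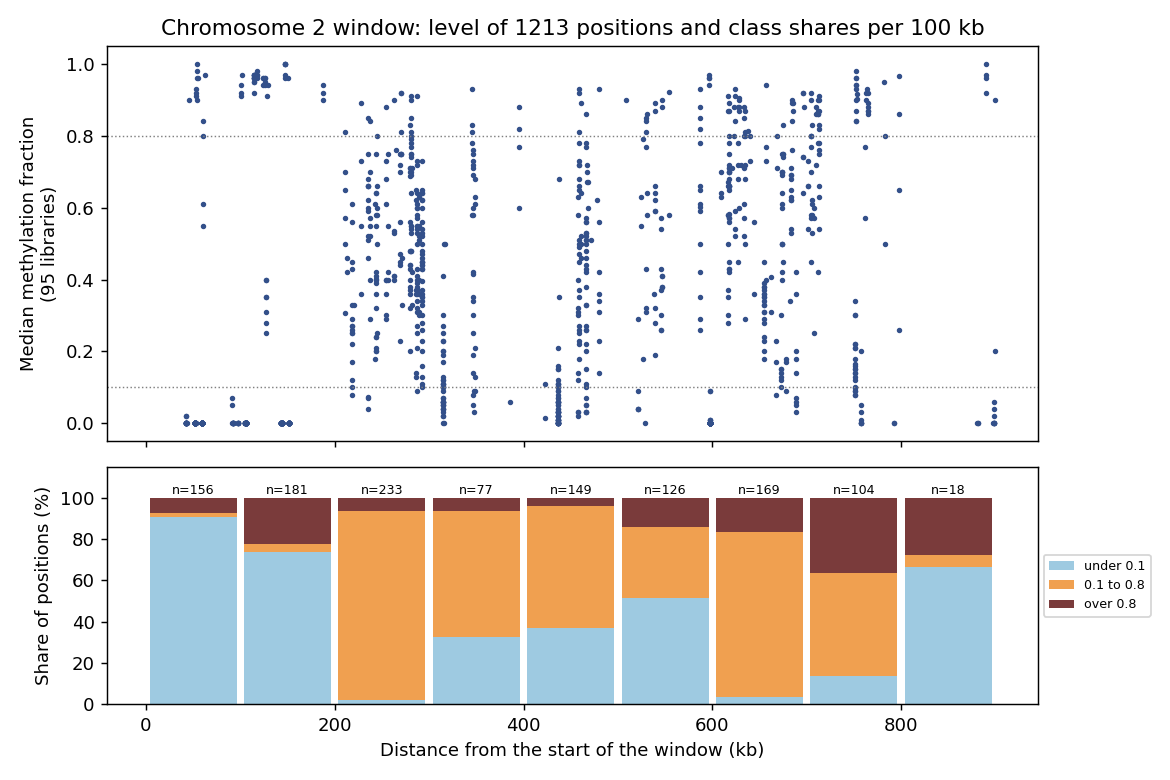
Top, median methylation fraction over 95 libraries of each of the 1213 positions against distance from the start of the window in kb, with dotted lines at 0.1 and 0.8; bottom, share of positions in each class per 100 kb, with the number of positions above each bar. The first 2 bars are mostly unmethylated, and the third bar is 91.4% intermediate.

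The intermediate levels were not limited to sparse positions. Density was counted as the positions listed up to 100 bp to either side, the position itself included. Its median was 10 in the window and 7 outside. At a density of 4 to 15, 396 of 643 window positions (61.6%) were intermediate, against 16.1% of 165128 positions outside. At 16 to 31 the intermediate share was 24.9% of 345 positions in the window and 4.99% of 54814 outside. Among sparse positions, at a density of 1 to 3, it was 53.5% of 200 and 27.2% of 73173. The densest class, 32 to 88, held only 25 window positions, all of them unmethylated, as were 91.2% of 9863 positions outside.

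To follow regions rather than single positions, positions no more than 100 bp apart were joined into runs when 10 or more followed each other, and a run's level in a library is the mean of its positions. The window held 29 runs with 758 positions. Of these, 17 (58.6%) had a median level between 0.2 and 0.8, 9 lay under 0.1, 2 between 0.1 and 0.2, and 1 over 0.8. Outside the window, 517 of 7245 runs (7.14%) lay between 0.2 and 0.8 and 5174 under 0.1.

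The lowest runs had medians near 0. Their upper ends rest on a correction, which replaced deposited values of 1.0 by 0.01 wherever a position's median was under 0.05. Of the 9 runs under 0.1, 7 were under 0.01, and 6 of those lay in the first 200 kb. Lowest was the run at chr2:35851903-35852122, with 30 positions and a median of 0.00167, and its highest library was at 0.009. Next came the run at chr2:35843495-35843943, with 56 positions, a median of 0.00179 and a highest library of 0.00946. Neither run held a position with a median above 0. The runs at chr2:35758910-35759333 (59 positions), chr2:35805383-35805850 (48 positions) and chr2:35752211-35752641 (40 positions) had medians of 0.00186, 0.00187 and 0.0025. The last of the 6, at chr2:35742565-35742766, had a median of 0.00722 and a highest library of 0.0594. With values as deposited the medians of these 6 runs were 0.00167 to 0.01, and their highest libraries lay at 0.134 to 0.453. A further unmethylated run stood inside the intermediate stretch. At chr2:36297465-36298026 it held 60 positions, the most of any run of the window, with a median of 0.0085 and a range over libraries of 0.00233 to 0.0318, and its highest library was at 0.357 as deposited.

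Other low runs of the stretch were less clear of methylation. The run at chr2:36136193-36137035, the longest of the window at 843 bp and 57 positions, showed a median of 0.0582, with libraries from 0.0186 to 0.121 (up to 0.238 as deposited). Of its positions 45 were unmethylated and 12 intermediate. The pair at chr2:36014646-36014805 and chr2:36014920-36015105 had medians of 0.088 and 0.143, with highest libraries of 0.217 and 0.253. The highest library of the first was at 0.272 as deposited. The correction leaves positions with medians of 0.05 or more unchanged. Both runs of the pair and the run before them held such positions with values of 1.0, whose part in the highest libraries was not tested. A far wider range was seen at chr2:36451054-36451489, with a median of 0.175 and a range over libraries of 0.0482 to 0.42. The lowest library of this run was thus under the boundary of 0.1 and the highest in the middle of the scale.

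At the other end, the methylated run at chr2:35814071-35814296 had a median of 0.959, and its libraries ran from 0.858 to 0.992. The next highest were intermediate. At chr2:36412697-36412970 a run had a median of 0.761 (0.581 to 0.883), that at chr2:35980303-35980407 of 0.698 (0.599 to 0.779), that at chr2:36317057-36317480 of 0.667 (0.528 to 0.774) and that at chr2:36405037-36405146 of 0.644 (0.339 to 0.907). Of these 4, only the last had a library over 0.9.

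**Figure D2:**
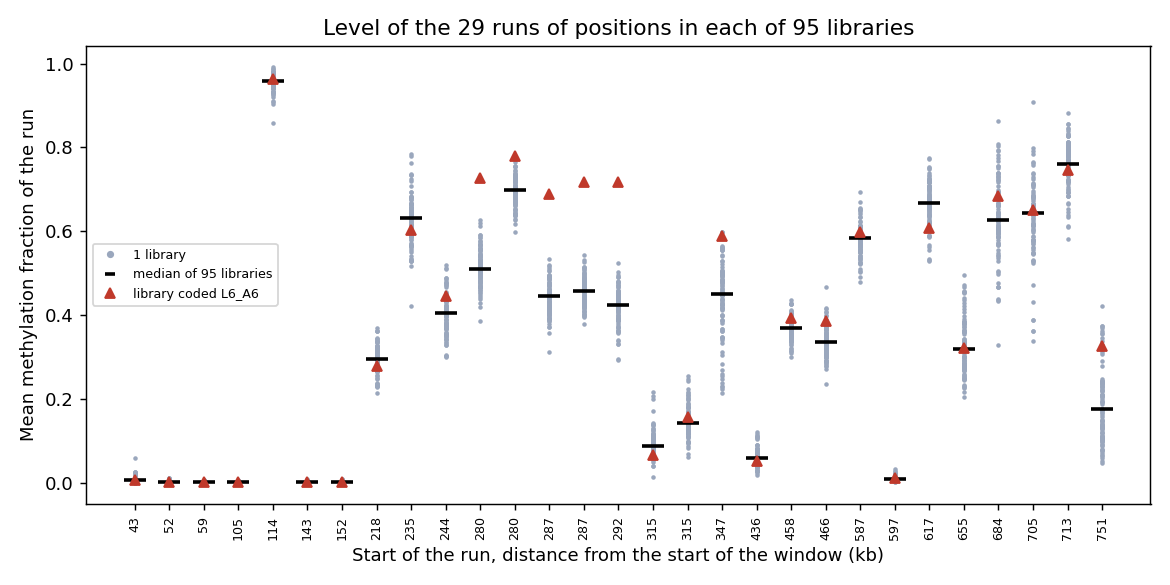
Mean methylation fraction of each of the 29 runs (grey points, 1 per library; black bars, median of 95 libraries; red triangles, the library coded L6_A6), in order of position along the window. Runs near 0 have almost no spread after the correction of values of 1.0, and in 5 neighbouring intermediate runs L6_A6 is the highest library.

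Some intermediate runs differed little between libraries and others a great deal. Across the 17 intermediate runs the standard deviation over the 95 libraries had a median of 0.0497, from 0.0274 to 0.0959, against a median of 0.0579 over 517 such runs outside. The steadiest was the run at chr2:36158103-36158756, with 26 positions, a median of 0.368, a range over libraries of 0.3 to 0.435 and a standard deviation of 0.0274. After it came the runs at chr2:35918024-35918415 (0.0331), chr2:35980303-35980407 (0.0354), chr2:36165937-36166191 (0.0372) and chr2:36286967-36287288 (0.0392). In none of these 5 did a library reach either the unmethylated or the methylated class.

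Of the 5 widest runs, 3 followed each other late in the window. At chr2:36383756-36383877, a run of 10 positions had a median of 0.627, libraries between 0.328 and 0.864 and a standard deviation of 0.0959. That at chr2:36405037-36405146 followed with 0.095, and the run at chr2:36046607-36046873, with 18 positions, a median of 0.451 and a range over libraries of 0.214 to 0.597, with 0.0922. The run at chr2:36354745-36355034 (0.0656), which precedes the widest one, and that at chr2:35935488-35935626 (0.0598) completed the 5 widest. The runs with the 2 largest standard deviations hold only 10 positions, the fewest a run could have.

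In 15 of the 17 intermediate runs differences between positions took a larger share of the variation than differences between libraries, and in 2 a smaller one. The run at chr2:36158103-36158756 held positions with medians from 0.02 to 0.73, and the run at chr2:36165937-36166191 positions from 0.03 to 0.86. Over the 17 runs the range of position medians had a median of 0.53, against 0.61 over the 517 intermediate runs outside. Of the 17, 8 held a position under 0.2 and 9 a position over 0.8, which was not counted for the runs outside. When the squared deviations of all cells of a run were split, differences between positions took a median of 66%, differences between libraries 6.07% and the rest, which includes the sampling of reads, 28.3%. The positions' share was highest, at 86.9%, in the run at chr2:36158103-36158756. It was lowest, at 13.6%, in the run at chr2:36383756-36383877, where libraries took 41.7%. The other exception was the run at chr2:36354745-36355034, with 17.8% for positions and 19.5% for libraries. Intermediate runs outside had like shares, with medians of 70.2%, 8% and 19%.

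The uneven levels were shared by both strands. In the repeat table, consecutive positions gave 1646 CpGs of the window with both strands, of which 189 had both in the main table and 80 had a mean level from 0.2 to 0.8. At these 80 CpGs the median levels of the strands differed by a median of 0.01 and by at most 0.06, and correlated across CpGs with r = 0.991. The level of a CpG was thus nearly the same on either strand. Intermediate positions of the window that were next to each other in the list and 2 to 50 bp apart differed by a median of 0.11 over 269 pairs, and 27.1% of pairs by more than 0.2. Outside these values were 0.09 and 21.8% over 13010 pairs.

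Single positions of the window had a spread across libraries close to that of positions of like level. For medians from 0.2 to 0.8, the standard deviation had a median of 0.116 at 521 window positions and 0.118 at 38814 positions outside. The 90th percentile was 0.145 in the window and 0.163 outside. None of the 1213 positions had libraries grouped near 0, in the middle and near 1 at once, the pattern of a polymorphic cytosine. Of all 304191 positions 292 (0.096%) had it, a share at which hardly any of 1213 would, so the 0 says little about the window. Positions that miss this pattern could still be wide. The widest of the window, chr2:36229574, had a standard deviation of 0.313 and libraries from 0 to 1.

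Window positions 2 to 1000 bp apart moved together less, and those over 1000 bp apart more, than positions elsewhere with medians from 0.2 to 0.8. The median correlation across the 95 libraries between positions 2 to 10 bp apart was 0.352 over 201 pairs in the window and 0.572 over 7541 pairs outside. At 11 to 100 bp it was 0.199 and 0.442, and at 501 to 1000 bp 0.119 and 0.282. The order then turned. At 5001 to 20000 bp the median was 0.105 over 10326 window pairs and 0.0457 outside, at 20001 to 100000 bp 0.0785 and 0.03, and at 300001 to 600000 bp 0.0486 and 0.0129. At this last distance 66.3% of the window pairs had a correlation above 0, against 53.7% outside. These correlations are weak, their pairs share positions and libraries, and the difference was not tested. After subtraction of the mean of libraries that share the second element of their code (A1 in L5_A1), they were 0.0969 and 0.0316 at 5001 to 20000 bp, and 0.0267 and 0.00991 at 300001 to 600000 bp. Without the 16 libraries coded A1, A3 or A4 they were 0.0909 and 0.0296, and 0.0342 and 0.0116. The 2 strands of a CpG were not among these pairs. Between strands the median correlation across libraries was nearly equal, at 0.218 in the window and 0.226 on the rest of chromosome 2.

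**Figure D3:**
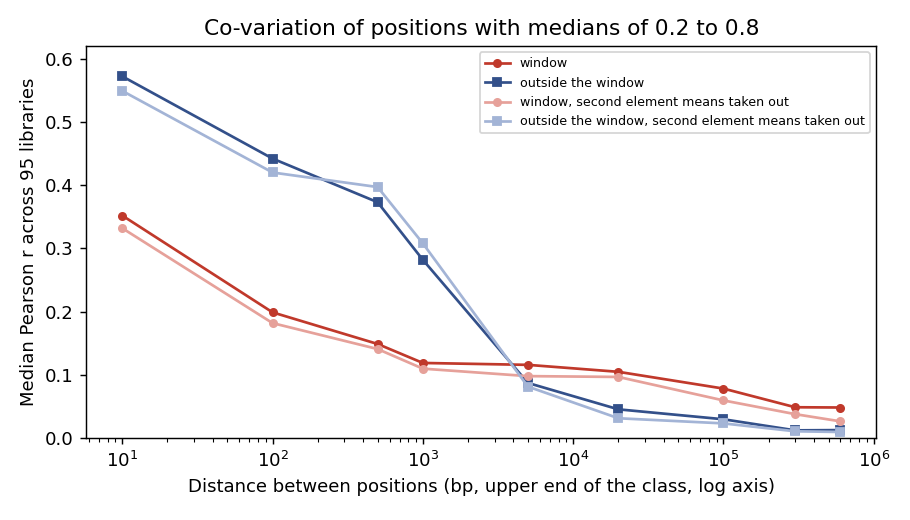
Median Pearson correlation across 95 libraries between positions with medians of 0.2 to 0.8, by distance (upper end of each class in bp, log axis), in the window (circles) and outside it (squares); pale lines are after subtraction of the means of libraries sharing a second code element. At the distances shown, which start at 2 bp, the window lies below the other positions up to 1000 bp and above them from 5000 bp on.

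Averaging over the positions of a run showed the shared movement more plainly. The levels of the 17 intermediate runs correlated with a median r of 0.277 over 136 pairs, and 134 pairs were above 0. For the 14 pairs up to 20 kb apart the median was 0.529, for 33 pairs from 20 to 100 kb 0.34, and for 89 pairs at 100 kb or more 0.238. The highest, 0.745, was between the runs at chr2:35986940-35987241 and chr2:35992388-35992791, and it was 0.604 without the library coded L6_A6. Without that library the median was 0.462 for the pairs up to 20 kb apart and 0.3 over all pairs. Without the libraries coded A1, A3 or A4 it was 0.222 over all pairs. Pairs of runs outside the window were not compared, so whether these values are particular to the window was not tested.

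L6_A6 stood apart from the other libraries in 1 stretch of the window. In the run at chr2:35992388-35992791, with 38 positions, the median was 0.424, the lowest library 0.294 and the second highest 0.525, while L6_A6 was at 0.718. In the run at chr2:35986940-35987241 it was at 0.718 and the second highest at 0.544, and in the 15-position run just before it, which ends at chr2:35986780 and whose median was 0.446, it was at 0.689 and the second highest at 0.533. L6_A6 was also the highest in the runs at chr2:35979545-35979759, at 0.726 against 0.626, and at chr2:35980303-35980407, at 0.779 against 0.765. These 5 runs follow each other with no other run between them.

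From the first to the last of them, chr2:35979545-35992791 or 13.2 kb, 116 positions had medians from 0.1 to 0.9. Over these the level of L6_A6 was 0.715, that of the next library 0.558, the median 0.487 and the lowest 0.387. It was above the median at 112 of the 116 positions and the highest of all libraries at 38. None of its values there carried more than 2 decimals (0 of 116). In absolute terms the shift was larger where methylation is usually low. A fraction has an upper bound, so high positions have less room to rise, and this was not allowed for. At the 14 positions of the stretch with medians under 0.3, the median was 0.2 and L6_A6 had a median of 0.61, whereas at the 35 positions from 0.6 to 0.9 these were 0.7 and 0.82. At the 415 positions of the rest of the window with medians from 0.2 to 0.8 it was at 0.523, 32nd of 95, with libraries from 0.429 to 0.581 and a median of 0.511. It was the highest library in 1 further 10 kb interval, chr2:36040000-36049999, at 0.641, close to the next at 0.637. Over positions of that level outside the window it was at 0.545, 33rd of 95. The stretch was picked because this library was highest there, so the values are a description.

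**Figure D4:**
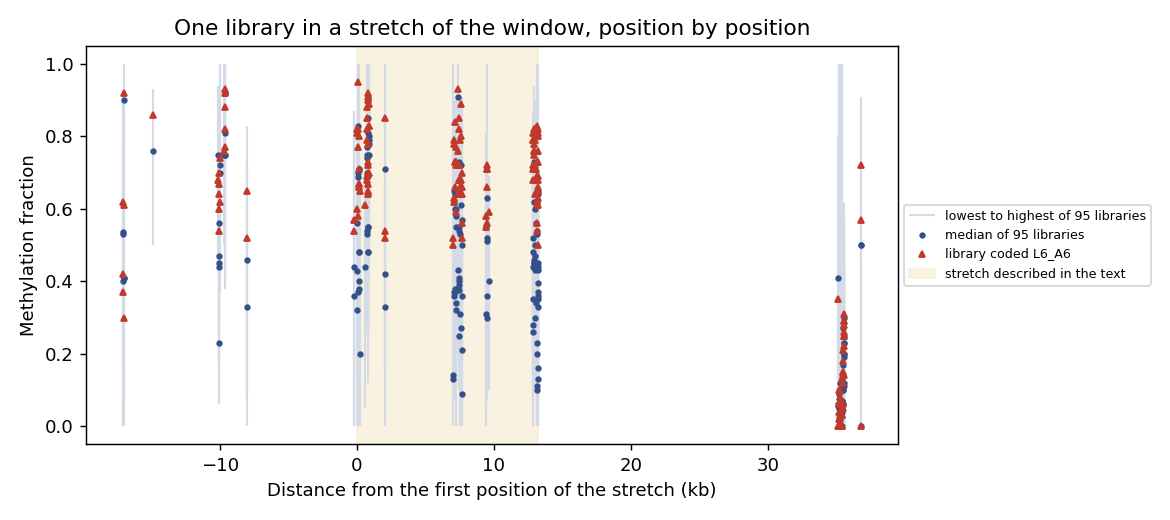
Methylation fraction by position around the stretch (shaded), against distance from its first position in kb; blue points, median of 95 libraries; lines, lowest to highest library; red triangles, the library coded L6_A6. Within the shaded stretch L6_A6 is above the median at 112 of 116 positions with medians from 0.1 to 0.9.

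A library apart from all others in this way was rare in the table. In intervals of 10 kb with at least 8 positions between 0.1 and 0.9, the gap between the end library and the next was set against the whole range. The gap exceeded 0.4 of the range in 2 of 27 intervals of the window, both with L6_A6 as the highest library. In the table it did so in 8 of 1970 intervals (0.406%), these 2 included. The 2 adjoin within the stretch picked above, so they are not separate cases. In the other window intervals the gap at either end reached at most 0.249 of the range.

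The mean level of the window's intermediate positions differed between libraries more than the mean over such positions of the rest of the genome. Over the 521 positions with medians from 0.2 to 0.8 the library mean had a median of 0.507, from 0.427 in the library coded L5_A1 to 0.578 in L3_A13, with a standard deviation of 0.0305. Over 38814 such positions outside it ranged from 0.513 to 0.569, with a standard deviation of 0.0116. Over all 1213 window positions the standard deviation of the library mean was 0.016. The 2 intermediate sets differ in their number of positions, and those outside are spread over the genome rather than in a single region. The part of either in this was not tested, and no other region of like size was compared. Across the 95 libraries the 2 levels showed no linear relation, with a Pearson r of 0.00618 and a Spearman rho of -0.0344. The r was 0.0229 without the 2 libraries farthest from the median outside, and 0.206 over the 79 libraries without the codes A1, A3 and A4. Within the prefixes of the code (such as L5), which hold 8 to 11 libraries each, r ranged from -0.61 to 0.557.

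The prefixes themselves overlapped, with window medians from 0.494 to 0.518. Medians lay farther apart by the second element of the code, whose meaning is not given in the sources used here. Its groups named below hold 4 to 6 libraries, against 8 to 11 per prefix. Medians of smaller groups vary more, which was not allowed for. The 4 libraries coded A1 lay at 0.427 to 0.477 in the window, with a median of 0.445, and the 6 coded A4 at 0.45 to 0.491, with a median of 0.467. The 6 coded A3 had a median of 0.487 and reached 0.534. At the other end the 4 coded A6 had a median of 0.539, from 0.512 to 0.563, and the 5 coded A5 one of 0.528. Libraries A1 and A4 did not overlap with A5 or A6, but these codes were taken from opposite ends of this order. Outside the window the order was not the same, as A1 had a median of 0.548 and A3 of 0.553, above the 0.533 of A5. Of the 20 libraries with the lowest window level, 10 carried A1, A3 or A4, as 16 of all 95 do. These 3 codes were singled out from earlier results of these data. All 17 intermediate runs had a lower median in the 16 libraries than in the other 79, by a median difference of -0.039. The 17 runs also correlate with each other, so they are not 17 separate observations. How many intermediate runs outside the window were lower in these libraries was not counted. Over the intermediate positions outside, the 16 libraries had a median level of 0.548 and the other 79 one of 0.54. The difference was largest for the run at chr2:36046607-36046873, with a median of 0.263 in the 16 libraries and 0.46 in the other 79.

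**Figure D5:**
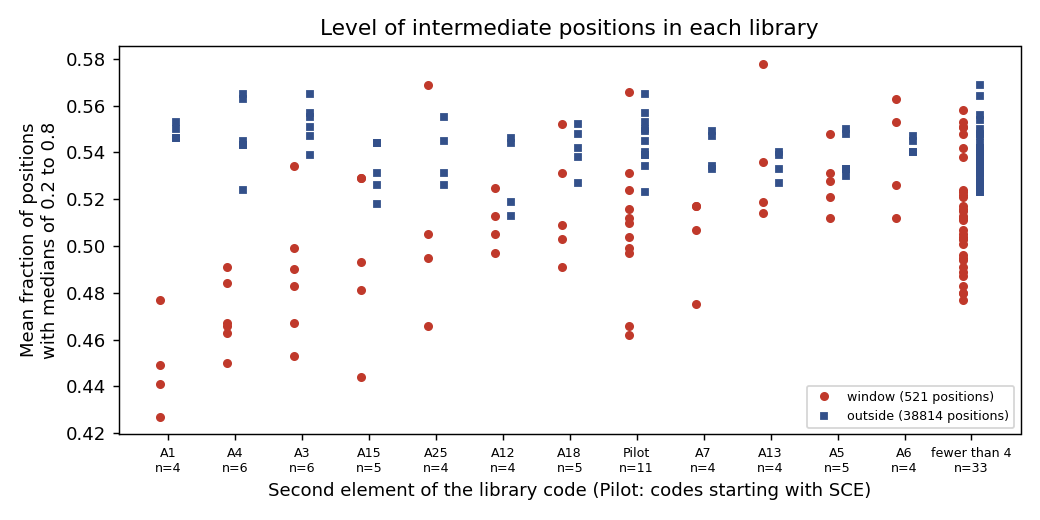
Mean methylation fraction over positions with medians of 0.2 to 0.8 in each library, in the window (red circles, 521 positions) and outside it (blue squares, 38814 positions), grouped by second code element and ordered by window median; codes with fewer than 4 libraries are pooled at the right and the vertical axis does not start at 0. The A1 and A4 libraries are all under 0.5 in the window.

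The repeat table extends the picture to positions the main table leaves out. Of its 3368 window positions 1433 (42.5%) were intermediate by the median of its 7 libraries, 1208 (35.9%) unmethylated and 727 (21.6%) methylated, where over all of its positions 11.2% were intermediate, 61.9% unmethylated and 26.9% methylated. The 2342 positions listed only there had 42.3% intermediate. By 100 kb, the intermediate share again was highest in the third interval, at 79.4% of 335 positions, and lowest in the last interval, at 3.2% of 219. The tables differed in the fourth interval, with 61% of 77 positions in the main table and 32.9% of 353 in the repeat table. In the sixth interval the shares were 34.1% of 126 and 59.4% of 340, and in the second 3.87% of 181 and 24.6% of 452. The repeat table formed 108 runs in the window, of which 62 lay between 0.2 and 0.8.

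The levels of the intermediate runs repeated in the second capture. Of the 17 runs, 16 had positions in both tables, and over these positions the median of the 6 libraries coded CHYB6 was within 0.05 of the median of the 95 libraries in all 16, with differences (CHYB6 minus main table) from -0.0402 to 0.0455. The run at chr2:36317057-36317480 had medians of 0.666 and 0.667, and the 15-position run that ends at chr2:35986780 of 0.466 and 0.446. The labels list 6 repeat captures, so dogs may be shared between the tables. Runs outside the window were not compared in this way, so the closeness may not be particular to these runs.

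The 6 CHYB6 libraries share a number with a library coded Pilot, 1 of which stands in the repeat table itself, and whether such a pair is of one dog was not checked here. Over 1009 to 1026 shared window positions, the 6 pairs had a median r of 0.956, from 0.95 to 0.968, and their median absolute difference was 0.03 or 0.04. At positions with a mean of both between 0.1 and 0.9, 480 to 532 per pair, r was 0.836, from 0.807 to 0.873, and the difference 0.06 to 0.09. Libraries of other numbers came close to this, as the main table's other libraries correlated with each CHYB6 library at a median r of 0.766 to 0.831 over the same positions. For numbers 5 and 10 no other library was closer than the library of the same number, while for numbers 6 and 7 there were 44 and 24 such libraries. In 4 of 6 pairs the CHYB6 library had the higher mean over shared positions, and CHYB6 minus Pilot ranged from -0.00498 to 0.00654.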

How the data were processed

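Both tables hold a methylation fraction for each cytosine position in each library, as deposited by the authors, without read counts or coverage, so that no interval or coverage minimum was possible. Software listed by the submitters' processing notes was Bismark 0.14.3, Bowtie2 2.1.0 and Trim Galore, with the build CanFam3.1 and no roles given. Values with more than 2 decimals (0.816% in the window) were kept, except in the Pilot libraries of the pairs that share a number. Of the main table's cells, 6 equal 0.01 and 415968 equal 0.02. At positions with a median under 0.05, fractions of 1.0 (tolerance 1e-06) were set to 0.01, which touched 741 of 38570 such cells of the window. Coordinates are the first of the pair in each column name, with an uncertainty of 1 bp. Sequences were not used here, and gene identity and promoters were not checked.

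The members, the lists and the settings were chosen with earlier results of these data known. Runs given with values are the 5 with the highest and the 5 with the lowest median, the 5 intermediate runs with the largest and the 5 with the smallest standard deviation, the 3 with most positions and 1 known from earlier results (it ends at 35986780); others were named after their values were seen. No test was run: libraries match no label, so the planned limma fit on age was left out. Steps were checked on simulated data. Alternatives varied class boundaries, window, runs, libraries, correlation measure and the correction. Versions were NumPy 2.4.6, SciPy 1.17.1, Matplotlib 3.10.9 and Python 3.11.15.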

Additional observations from a re-analysis of the deposited data

Results flagged for a closer look

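Among the 6 pairs of libraries that share a number, the median absolute difference at positions with a mean between 0.1 and 0.9 was 0.06 for number 5, apart from the other 5 pairs at 0.08 or 0.09. Values have steps of 0.01, and of 6 measures examined in these pairs this was the only one with a pair apart. By the nominal level of the rule used (Dixon), chance sets a pair apart in about 1 of 20 such comparisons, and ties at steps of 0.01 were not allowed for.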

How the results depend on the processing

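The files give no read depth, so what it limits cannot be stated. Of 45 alternatives to 11 summary values, 33 stayed near the main value. Near meant within the spread between libraries, pairs or prefixes, within the interval of a share, or within 1.5 times a count. The interval of a share (Wilson) treated positions as independent, which neighbouring ones are not. With class boundaries of 0.2 and 0.7, the unmethylated, methylated and intermediate shares were 43.4%, 20.6% and 36%, so that unmethylated and no longer intermediate positions were the most frequent. In a window shorter by 100 kb at each end, the unmethylated share was 29.3% and the intermediate share 56.3%. The number of runs rose from 29 to 65 and that of intermediate runs from 17 to 39 when 5 positions made a run. The median level of the runs, 0.368, was 0.458 with such runs and 0.143 with gaps up to 50 bp. The median r of libraries of the same number was 0.926 with values as deposited, and at positions between 0.1 and 0.9 it was 0.836, with a median absolute difference of 0.08. The cause of these changes was not tested. Leaving out L6_A6 or the libraries A1, A3 and A4 was chosen after seeing the data. No paired analysis was possible because the libraries carry no label.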
